A study of Mus musculus with 3 samples.

Results

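The genes described here carry haemoglobin and haem into the macrophage and break the haem down: Cd163, Lrp1, Slc48a1, Hmox1, Blvra and Blvrb. They were chosen by symbol, and all 6 were found among the 28692 genes in the files. They were followed in Kupffer cells, the resident macrophages of the liver sinusoids, by single-cell RNA sequencing of 3 male mice aged 8 weeks. The chow mouse (day 0) ate a normal chow diet, and the other mice were fed for 3 days or for 10 days on the Lieber-DeCarli diet, a liquid diet, with 5% ethanol. Each group was 1 mouse and 1 library, so no test between groups was possible, and the intervals below cover counting error only. Mouse, library and diet cannot be told apart, nor can ethanol from the liquid form of the diet, since the control ate chow. The labels give no strain and no genetic change. Liver non-parenchymal cells had been sorted as live, F4/80-high and CD11b-intermediate cells.

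Kupffer cells engulf old red cells and also take haemoglobin and haem from plasma. CD163 binds haemoglobin held by haptoglobin, and LRP1 binds haem held by haemopexin. HRG1, the product of Slc48a1, moves haem out of the phagolysosome. Haem oxygenase 1, the product of Hmox1, opens the haem ring to biliverdin, iron and carbon monoxide, and the biliverdin reductases Blvra and Blvrb make bilirubin. BLVRB is also a flavin reductase. In macrophages the iron is stored in ferritin or exported by ferroportin, and Hmox1 is repressed by BACH1 and induced by NRF2.

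The libraries held 16538895 to 21650747 UMIs (unique molecular identifiers, counted as 1 per captured RNA molecule). After filters on UMIs, genes, mitochondrial share and doublets, 2656 cells were kept for chow, 3899 at 3 days and 2893 at 10 days. The labels put the average at 3000 to 5000 cells for each sample, without saying how cells were called. Pairs of libraries shared 13 to 20 cell barcodes, where 11.3 to 16.6 would be shared by chance draws from the same barcode list. Clusters with the Kupffer markers held 2296, 3448 and 2517 cells, or 86.4%, 88.4% and 87.0% of those kept, and are called Kupffer-like. Their 11 Kupffer markers, among them Clec4f at 4168, 4102 and 4120 CPM (the share of the UMIs of these cells, scaled up to the same total in each library), summed to 23162, 23139 and 22860 CPM. Single markers moved in either direction: Marco had 346, 361 and 614 CPM, C6 742, 1002 and 1018, and C1qa 5877, 5022 and 4401. The 12 T and NK markers summed to 83.4, 57.4 and 91.8 CPM in the same cells, and the 10 hepatocyte markers to 1110, 1163 and 900 CPM, mostly Trf. The 9 B and plasma cell markers summed to 149, 37.7 and 33.6 CPM, and the part of these markers in the results was not tested. Kupffer-like cells were deeper on chow, with a median of 4484.5 UMIs against 2986 and 3012.

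Cd163 was the member with the largest difference, high at 3 days and near the chow level at 10 days. It had 550 CPM on chow, 1224 at 3 days and 607 at 10 days, from 6024, 13813 and 4991 UMIs. The ratio to chow was 2.22 (95% interval 2.16 to 2.29) at 3 days, and 18 of the 7510 genes with a mean of at least 10 CPM had a higher one. At 10 days it was 1.10 (1.06 to 1.14), and the 10-day level was 0.496 (0.480 to 0.512) of the 3-day level. Thinned to 1000 UMIs per cell, 39.1% (37.1% to 41.1%) of Kupffer-like cells on chow held a Cd163 UMI, 63.5% (61.9% to 65.2%) at 3 days and 42.1% (40.2% to 44.1%) at 10 days. Without thinning, Cd163 was in 75.6%, 85.9% and 71.1% of cells. The T and NK-like cells, which should lack Cd163 and so show free RNA, held it in 3.45%, 5.56% and 3.92% of thinned cells. Their median depths before thinning were 3534.5, 2614.5 and 2448 UMIs.

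The 3-day difference in Cd163 appeared in every Kupffer-like cluster large enough to compare and at every depth of cell. In the 5 clusters with at least 50 cells in all 3 libraries the ratio to chow ran from 1.66 in the proliferating cluster to 2.18, past 1.5 in 5 of 5. Among cells of 1000 to 2000 UMIs it was 2.07, and among cells of 5000 UMIs and more it was 2.00. The 10-day values in the same clusters ran from 0.966 to 1.25 of chow. The cluster sums with the highest Cd163 were 1318 CPM at 3 days and 804 at 10 days, both in cluster 1, which Vcam1 and Ttc39c led.

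Because Cd163 moved most, the 250 bases before its start are shown, beside those of Blvrb, the member with the lowest ratio to chow. The sequences are from RefSeq on GRCm38.p6, whose promoter table matched 4 of the 6 members, with none used here for Hmox1 and Slc48a1. The windows are chr6:124304401-124304650 on the plus strand for Cd163 and chr7:27447728-27447977 on the plus strand for Blvrb, which has a second start in the table. Capitals mark the glucocorticoid response half-site AGAACA, searched on both strands.
Cd163: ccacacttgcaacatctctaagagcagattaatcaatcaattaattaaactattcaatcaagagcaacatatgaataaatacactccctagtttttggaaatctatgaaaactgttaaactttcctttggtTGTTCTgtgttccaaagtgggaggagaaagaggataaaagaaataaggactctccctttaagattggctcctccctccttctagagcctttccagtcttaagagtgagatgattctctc
Blvrb: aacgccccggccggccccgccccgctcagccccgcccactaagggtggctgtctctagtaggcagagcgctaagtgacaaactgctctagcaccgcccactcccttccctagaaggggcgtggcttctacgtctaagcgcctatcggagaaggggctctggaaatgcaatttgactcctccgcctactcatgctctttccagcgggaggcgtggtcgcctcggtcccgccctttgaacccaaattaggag
The Cd163 window holds 1 match, which begins 119 bases before the start, and 16.1% of the 32851 promoters in the table hold at least 1. The Blvrb window holds none. The core of the antioxidant response element, TGACNNNGC, has no match in either window and is in 10.2% of promoters. The windows of Blvra and Lrp1, not shown, do hold it, 49 and 160 bases before the start. Cd163 has 36.8% G and C in its window and Blvrb 62%, where the median promoter has 52.4%.

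Lrp1, the other uptake receptor, was close to level. Its 640 CPM on chow stood beside 675 at 3 days and 682 at 10 days, ratios of 1.05 (1.02 to 1.09) and 1.07 (1.03 to 1.10). With each cluster weighted equally they were 1.01 and 0.980. Of Kupffer-like cells, 47.9%, 50.8% and 49.4% held an Lrp1 UMI after thinning, where T and NK-like cells held 2.59%, 1.11% and 3.92%. Cd163 and Lrp1, counted by molecules and so on a scale that does not depend on length, were near each other on chow and at 10 days and apart at 3 days.

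Slc48a1, the haem transporter of the phagolysosome, had 198, 208 and 187 CPM. Its ratios to chow were 1.05 (0.992 to 1.12) at 3 days and 0.942 (0.882 to 1.01) at 10 days, and both intervals include 1. The 10-day level was 0.895 (0.839 to 0.955) of the 3-day level. It was seen in 17.0%, 19.1% and 17.4% of thinned Kupffer-like cells and in 2.59%, 1.11% and 0.654% of T and NK-like cells.

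**Figure D1:**
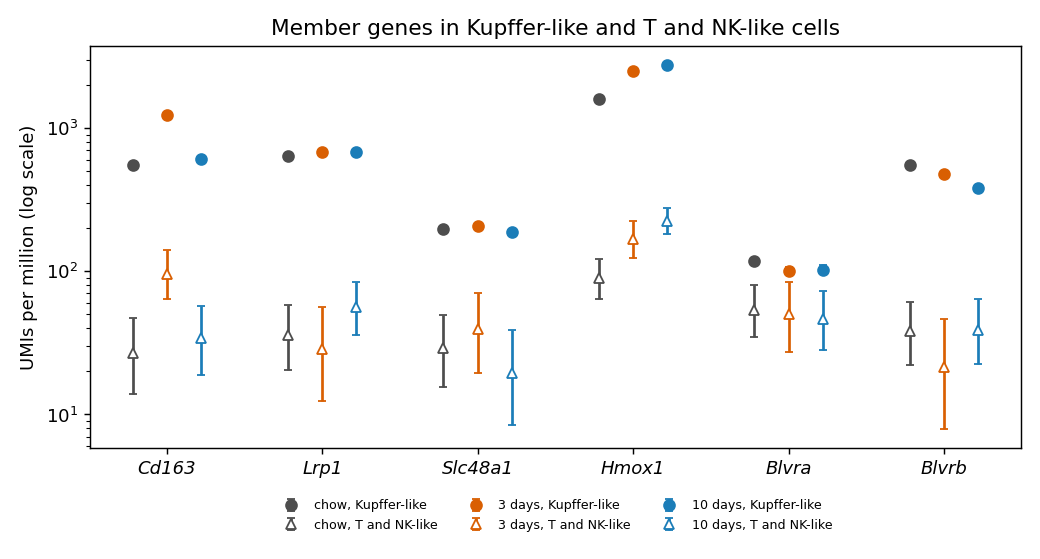
Level of each member in CPM (log scale) in Kupffer-like cells (filled circles) and T and NK-like cells (open triangles), 1 library per point, with exact Poisson 95% intervals. Cd163 stands at 1224 at 3 days between 550 and 607, Hmox1 is above its chow level of 1584 in both ethanol libraries, and Blvra comes closest to its T and NK-like level.

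Hmox1 had the highest level of the 6 genes in each library, and it was above chow at both times. It had 1584 CPM on chow, 2485 at 3 days and 2753 at 10 days, from 17333, 28037 and 22647 UMIs. The ratios to chow were 1.57 (1.54 to 1.60) and 1.74 (1.70 to 1.77), and the 10-day level was 1.11 (1.09 to 1.13) times the 3-day level. Among cells of like depth that last ratio ran from 1.04 (0.991 to 1.08) in the deepest cells to 1.19. By cluster it did not hold throughout: 10 days was below 3 days in 3 of 5 clusters (0.922 to 0.948). With a mitochondrial limit of 5% the ratio was 0.984. Hmox1 was seen in 61.2%, 74.7% and 78.3% of thinned Kupffer-like cells (unthinned 93.2%, 94.2% and 96.3%), and in 13.8%, 11.1% and 20.9% of T and NK-like cells. Unlike Cd163, it did not come back toward chow at 10 days.

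The Hmox1 ratios were smaller among cells of like depth. Its level in CPM fell with the depth of the cell in every library, on chow from 3616 CPM in cells of 1000 to 2000 UMIs to 1306 in cells of 5000 UMIs and more. Cells of 5000 UMIs and more were 41.7% of Kupffer-like cells on chow, 13.3% at 3 days and 12.3% at 10 days. Within the 4 ranges of depth the 3-day ratio was 1.21 to 1.30 and the 10-day ratio 1.28 to 1.49, all under 1.5. Mean Hmox1 UMIs per cell, not scaled to depth, were 5.37, 6.73 and 7.13 in the shallowest range and 9.01, 10.2 and 10.9 in the deepest, in the order chow, 3 days and 10 days. Chow was thus lowest in all 4 ranges on either scale.

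The clusters differed in Hmox1 as well. Cluster 0, shallow in all libraries (medians of 2144, 1780 and 1863 UMIs), had the highest Hmox1 at 3177, 4209 and 4330 CPM, although Hmox1 was left out of the clustering. Cluster 3, the deepest, had the lowest at 1308, 1644 and 1540 CPM. Cluster 3 held 59.1% of Kupffer-like cells on chow, while cluster 1 led at 3 days with 38.0% and cluster 2, led by Klf4, Nr4a1, Rhob and Dusp1, at 10 days with 46.0%. Within the 5 clusters the ratio to chow was 1.26 to 1.37 at 3 days and 1.18 to 1.61 at 10 days. Weighted equally, the clusters gave 1.31 and 1.32. The median mitochondrial share was 5.24% on chow, 5.19% at 3 days and 6.44% at 10 days. Among cells with up to 5% the Hmox1 ratio to chow was 1.68 at both times, and among cells with 5% to 10% it was 1.47 and 1.49.

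**Figure D2:**
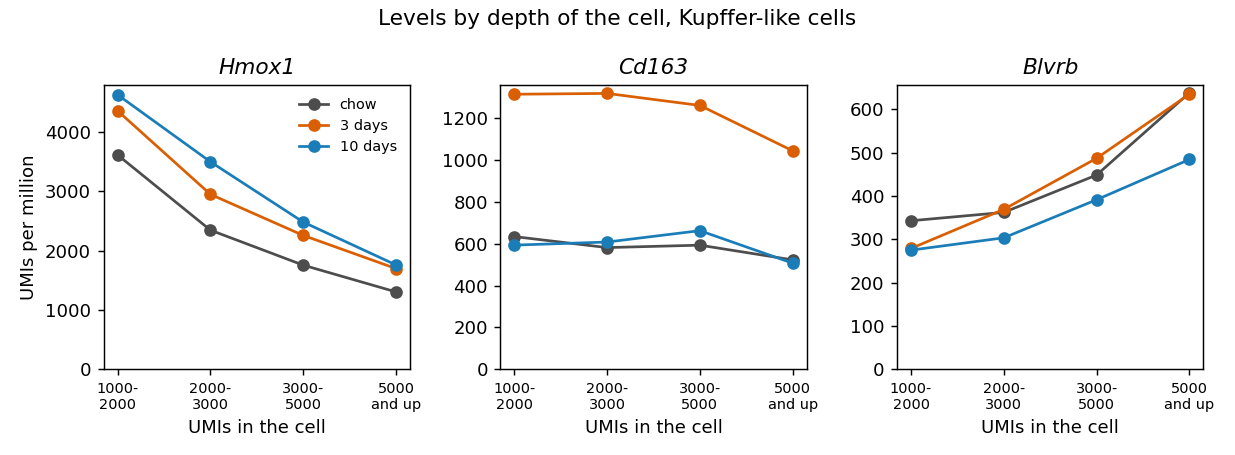
Level in CPM (linear axis from 0) of Hmox1, Cd163 and Blvrb in Kupffer-like cells grouped by the UMIs in the cell, 1 line per library. Hmox1 falls from 3616 to 1306 across the chow line with both ethanol lines above it. Cd163 at 3 days is apart from the other lines, at 1313 in the shallowest range and 1043 in the deepest. Blvrb climbs with depth in all 3 libraries.

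Hmox1 was also the most uneven of the 6 from cell to cell. At 1000 UMIs per cell its variance was 4.88, 4.75 and 4.95 times its mean in the 3 libraries, where a Poisson count gives 1. Cd163 had 1.33, 1.45 and 1.19, and the other 4 genes had 0.992 to 1.08. On chow 38.8% of Kupffer-like cells had no Hmox1 UMI, while 5.75% had 8 or more, and the 10% of cells with the most held 49.4% of Hmox1 UMIs. At 10 days the shares were 21.7% and 11.7%. Inside clusters 0 to 3 the ratio of variance to mean stayed between 2.65 and 6.17 for Hmox1 and between 1.06 and 1.58 for Cd163.

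**Figure D3:**
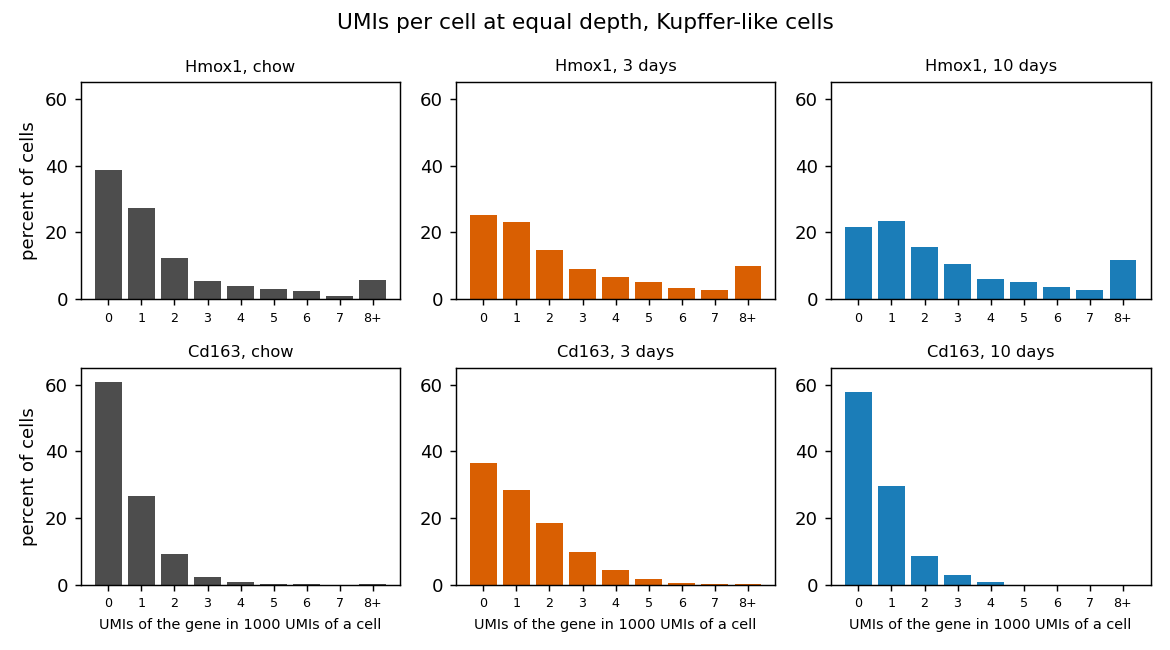
Percent of Kupffer-like cells by the number of UMIs of Hmox1 (upper row) and Cd163 (lower row) after each cell was thinned to 1000 UMIs, 1 panel per library. Cells with no Cd163 UMI are 36.5% at 3 days against 60.9% on chow and 57.8% at 10 days, and Hmox1 has a long right tail, with 5.75%, 9.77% and 11.7% of cells at 8 or more.

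The summed levels of both reductases were below chow, by less than 1.5-fold and not in every cluster. Blvra, which reduces the main form of adult biliverdin, was low throughout at 117, 101 and 103 CPM. Its ratios to chow were 0.862 (0.795 to 0.934) and 0.875 (0.802 to 0.956), and it was above chow in 2 of 5 clusters at 10 days. T and NK-like cells had 45.9%, 49.5% and 45.3% of the Kupffer-like Blvra level, against 4.89% to 7.87% for Cd163, 4.49% to 10.2% for Blvrb, 10.5% to 18.8% for Slc48a1 and 8.02% to 9.48% for the Kupffer marker Clec4f. Whether T and NK-like cells express Blvra was not tested.

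Blvrb was lower at each time, with 554, 477 and 383 CPM and ratios to chow of 0.861 (0.830 to 0.893) and 0.691 (0.662 to 0.721). Its level climbed with the depth of the cell, on chow from 343 CPM in the shallowest range to 638 in the deepest. Among cells of 2000 to 5000 UMIs the 3-day ratio was 1.04, above 1. Within the 4 ranges it was 0.814 to 1.09 at 3 days and 0.759 to 0.873 at 10 days, so 10 days was below chow in all 4. Within the 5 clusters Blvrb was above chow in 3 at 3 days and in 2 at 10 days. Equal cluster weights gave 1.005 and 0.892. Cluster 3, mostly of chow cells, had the highest Blvrb at 620, 646 and 524 CPM. Hmox1 and Blvrb thus ran in opposite directions across clusters, with a Pearson r of −0.69 over 15 sums of a cluster in a library, which share libraries and are given as a description.

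Past 1.5-fold at 3 days were 2 of the 6 members, Cd163 and Hmox1, both above chow, where 4.69% of the 7510 genes were past it, 3.4% above and 1.29% below. At 10 days 1 of 6 was past it, Hmox1, where 6.55% of genes were, 3.97% above and 2.58% below. Between 10 and 3 days 1 of 6 was below 1/1.5, Cd163, where 4.41% of genes were past the fold, 2.01% below and 2.4% above. The comparisons with chow share that library, and Hmox1 passed 1.5 in neither of them among cells of 2000 to 5000 UMIs (1.33 and 1.49). With TMM scaling Blvrb was past 1/1.5 at 10 days as well, for 2 of 6.

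**Figure D4:**
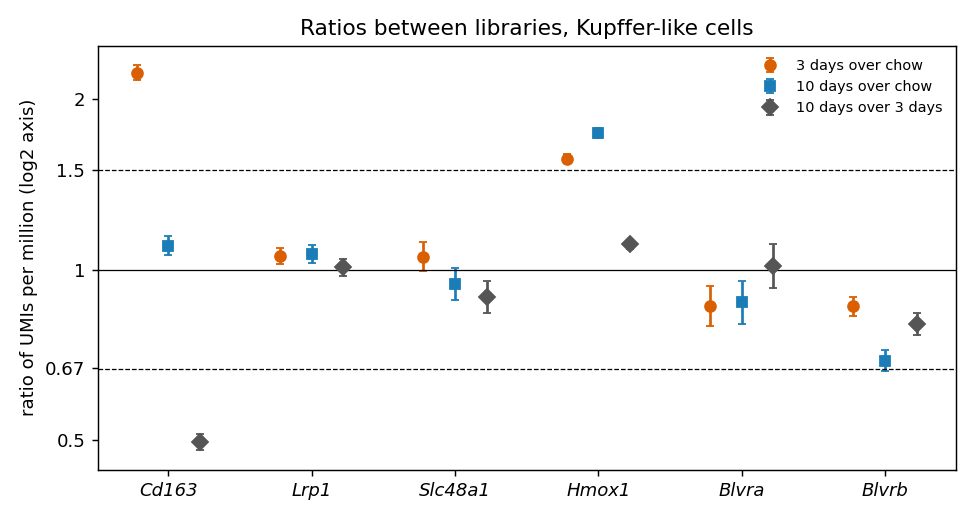
Ratio of CPM between libraries for each member in Kupffer-like cells (log2 axis), with exact 95% intervals for counting error and dashed lines at 1.5 and 1/1.5. Cd163 lies at 2.22 at 3 days and 0.496 from 3 to 10 days, Hmox1 at 1.57 and 1.74, and the remaining ratios lie between the dashed lines.

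Apart from Hpx, the other measured genes of haem binding, transport and breakdown stayed within 1.5-fold of chow. Of the 7 measured binding and transport genes, 0 were above 1.5 at either time and 1 was below 1/1.5 at 10 days, with a median log2 ratio of −0.01 at 3 days and 0.13 at 10 days, where all genes had 0.04 and 0.08. That gene was Hpx, which encodes haemopexin and is made by hepatocytes, at 15.6 CPM on chow and 3.89 at 10 days. It had 63.3 and 127 CPM on chow and at 3 days in barcodes of 10 to 100 UMIs, which hold free RNA, above its level in Kupffer-like cells. Adam17, which cuts CD163 from the cell surface, had ratios of 0.893 and 1.13, and Lrpap1, the chaperone of LRP1, 1.06 and 0.879. The haem exporter Flvcr1 had 35.1, 47.4 and 46.7 CPM. Hmox2, the constitutive haem oxygenase, had ratios of 0.958 and 1.06, and Por, which passes electrons to haem oxygenase, 1.04 and 1.03.

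None of the 6 measured genes for haem-sensing regulators passed 1.5-fold in either comparison with chow, with median log2 ratios of 0.21 and 0.05. Of all genes, 4.69% and 6.55% passed it, with medians of 0.04 and 0.08. Bach1, the repressor of Hmox1, had 51.1, 62.4 and 53.3 CPM. Nfe2l2, which encodes NRF2, had 156, 192 and 220 CPM, and Spic, a haem-induced factor of red pulp and Kupffer macrophages, had 109, 128 and 92.8. Of 9 measured NRF2 targets 0 were past 1.5-fold at either time, with medians of −0.08 and 0.10. Gsr, glutathione reductase, had ratios of 1.40 and 1.35, and Prdx1 had 0.869 and 0.979.

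Among 8 measured genes for the iron that haem releases, 0 were above 1.5, 1 was below 1/1.5 at 3 days and 3 were below it at 10 days. Of all genes, 1.29% were below it at 3 days and 2.58% at 10 days. The median log2 ratio was −0.16 and then −0.25. Ferritin genes were below chow, Fth1 at 0.732 and 0.645 and Ftl1 at 0.786 and 0.649. Tfrc, the transferrin receptor, was at 0.381 and 0.447, from 73.4 CPM on chow. Slc40a1, which encodes ferroportin, was above chow at 3292, 4251 and 4343 CPM, but under 1.5-fold. Of the haem synthesis genes, Fech, which inserts the iron, had ratios of 1.19 and 1.15, and Cpox had 1.24 and 1.38.

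Glucocorticoid targets and immediate-early genes, lists outside haem handling, were also often above chow at 3 days. Of 7 measured glucocorticoid targets 4 were above 1.5 at 3 days, where 3.4% of all genes were, and 0 were below. They were Sult1a1 at 2.57, Dusp1 at 2.15, Tsc22d3 at 1.89 and Mt1 at 1.73. The other measured targets, Per1, Fkbp5 and Sgk1, had 1.39, 1.36 and 0.894. At 3 days, Mt1 had 488 CPM in the barcodes that hold free RNA against 243 in Kupffer-like cells. Dusp1 had 705 against 592, Tsc22d3 214 against 176 and Sult1a1 138 against 142. On chow, Mt1 had 152 CPM in such barcodes against 141. The part of free RNA in the ratios of this list was not tested. The median log2 ratio of the list was 0.78, against 0.04 for all genes. At 10 days 3 were above, Dusp1, Tsc22d3 and Per1 (2.23, 2.02 and 1.88), and 1 was below, Fkbp5 at 0.651. Of all genes, 3.97% were above and 2.58% below at 10 days. Sult1a1 and Mt1 were back near chow, at 0.943 and 0.897. Of 15 immediate-early genes, which cell dissociation can also induce, 9 were above at 3 days and 6 at 10 days, with 0 below at either time. Dusp1 is in both lists and is counted in each. Egr1 had ratios of 2.77 and 1.42, Fos 1.97 and 1.17, Klf4 2.46 and 4.40, and Nr4a1 1.73 and 2.93. The list ratios pool all Kupffer-like cells and were not taken within clusters or depths. Klf4, Nr4a1 and Dusp1 are among the genes that lead cluster 2. That cluster held 10.8% of Kupffer-like cells on chow and 46.0% at 10 days. Of 6 heat shock genes 0 were past 1.5-fold at 3 days and 2 were above at 10 days, Hspa8 at 1.66 and Hsph1 at 1.51. The part of these lists in the Cd163 and Hmox1 differences was not tested.

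Across the 15 sums of a cluster in a library, the genes with the pattern most like a member were ranked by Pearson r of log2 levels among 2964 genes with a mean of at least 50 CPM. For Cd163 they were Eif5b (0.930), Ifi204 (0.922), Slfn2 (0.904), Sult1a1 (0.886) and Pla2g7 (0.866). Sult1a1 had 55.5, 142 and 52.3 CPM and Pla2g7 258, 392 and 210, so both were highest at 3 days, as were Eif5b, Ifi204 and Slfn2. For Hmox1 they included Mrc1 (0.983), Zfp217 (0.959), Usp8 (0.955) and Sowahc (0.954). Mrc1, the mannose receptor, had 884, 1352 and 1423 CPM, the same order as Hmox1. For Blvrb they were Fcer1g (0.982) and Tyrobp (0.976), 2 short adaptors of activating receptors, for Lrp1 Samhd1 and Vsig4, for Slc48a1 Stat2 and Fcho2, and for Blvra Plxna4os1 and Eif1a.

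Endothelial-like and T and NK-like cells had lower levels of all 6 members. In endothelial-like cells (41, 104 and 64 cells) Hmox1 had 286, 590 and 448 CPM and Cd163 162, 251 and 63.1 CPM, and Blvrb had 242, 179 and 233. T and NK-like cells (116, 90 and 153) had 89.7, 168 and 225 CPM of Hmox1, which was 5.67%, 6.75% and 8.18% of the Kupffer-like level. Barcodes of 10 to 100 UMIs had Cd163 at 528, 1025 and 505 CPM and Hmox1 at 1432, 2155 and 2387. In both sources Cd163 was highest at 3 days and Hmox1 at 10 days. With the profile of those barcodes subtracted, at free RNA shares of 28.0%, 11.3% and 15.2%, the 3-day ratios were 2.24 for Cd163 and 1.54 for Hmox1. The profile held Cd163 at 83.2% to 95.9% of the Kupffer-like level and Hmox1 at 86.7% to 90.4%. Subtracting it could therefore move these ratios only a little, so they are no check on free RNA. Clusters left unnamed for mixed markers held 6.59% of kept cells on chow and 4.42% at 10 days, with 3 days between. The largest of them, cluster 10 with Kupffer and T cell genes, had 484, 843 and 488 CPM of Cd163 and 1044, 1878 and 2056 of Hmox1.

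Red cell RNA was compared as well, since engulfed red cells are a source of haem. At least 1 globin UMI was in 13.4%, 14.4% and 9.65% of Kupffer-like cells. Kupffer-like cells with a globin UMI had 1691, 2483 and 2389 CPM of Hmox1 and those without had 1564, 2486 and 2797, and the sign of that difference was not the same in all libraries. For Cd163 the values were 562, 1190 and 639 CPM with and 548, 1231 and 603 without. Free RNA held globin transcripts too, with Hbb-bs at 368 CPM in chow barcodes of 10 to 100 UMIs against 28.3 in Kupffer-like cells.

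By the annotation of GENCODE vM21 on GRCm38, Cd163 (ENSMUSG00000008845) lies on chromosome 6 from 124304656 to 124330527 on the plus strand and Lrp1 (ENSMUSG00000040249) on chromosome 10 from 127538161 to 127621148 on the minus strand. Slc48a1 (ENSMUSG00000081534) lies on chromosome 15 from 97778520 to 97792692 and Hmox1 (ENSMUSG00000005413) on chromosome 8 from 75093621 to 75100589, both on the plus strand. Blvra (ENSMUSG00000001999) lies on chromosome 2 from 127070665 to 127097084 and Blvrb (ENSMUSG00000040466) on chromosome 7 from 27447978 to 27466144, both on the plus strand.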

How the data were processed

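The deposited matrices hold raw UMI counts per gene and barcode for 3 libraries of the 10x Chromium 3' v2 kit, per the labels, with every barcode included. The submitters' processing notes name Cell Ranger 2.2.0 with GRCm38 and mm10 as builds; how reads were aligned is not given in the sources used here. Barcodes with at least 1000 UMIs, 300 genes and at most 10% mitochondrial UMIs were kept. Scrublet's own threshold called 0 or 1 cell per library, so the 4% of cells with the highest scores were removed instead. Cells were clustered together with scanpy 1.11.5 (2000 variable genes, 30 components, 15 neighbours, Leiden resolution 0.6) without the member and haem pathway genes, and clusters were named from marker lists, with limits for naming chosen on seeing an earlier clustering. Per library, the counts of all Kupffer-like cells were added up and scaled to CPM. Ratios have exact conditional binomial 95% intervals, levels exact Poisson and shares exact Clopper-Pearson ones, which cover counting error only. Past the fold means above 1.5 or below 1/1.5 among genes with a mean of at least 10 CPM; log2 values had 1 CPM added. The precision is set by 844 to 28037 UMIs per member and library. Besides the members, named genes were list genes past the fold in any comparison, the 2 highest of each list, and the 5 (Cd163, Hmox1) or 2 genes most alike in pattern; Flvcr1, Bach1 and Slc40a1 and the cluster leaders were named after their values were seen. The members and lists were chosen with earlier results of these data known. Older symbols were matched by gene ID, and the list genes Ahsp and Cebpd were not analysed here. A few genes that the naming rule gives are not reported here. The ratio calculation was tested on simulated counts with known folds.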

Additional observations from a re-analysis of the deposited data

Results flagged for a closer look

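Barcodes left out for a mitochondrial share over 10% (234 on chow, 279 at 3 days and 457 at 10 days) also carried the members. The interval of the ratio to chow lay above 1 in 3 cases. As CPM of nuclear-encoded UMIs, Cd163 had 677 on chow and 1125 at 3 days, a ratio of 1.66 (1.46 to 1.89). Hmox1 had 2076, 2497 and 3289, ratios of 1.20 (1.11 to 1.30) at 3 days and 1.58 (1.48 to 1.70) at 10 days. Below chow at 3 days were Slc48a1 at 0.726 (0.556 to 0.948), Lrp1 at 0.836 (0.724 to 0.965) and Blvrb at 0.829 (0.691 to 0.995). Blvrb was also below at 10 days, at 0.763 (0.641 to 0.910). These barcodes were not assigned to cell types, and the hepatocyte gene Alb had 5379 CPM in them at 3 days against 578 on chow.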

How the results depend on the processing

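Of 252 ratios of members recomputed under other settings, 192 stayed within the counting interval of the reported value and 60 left it. The number that turned a ratio past 1.5-fold to the other side of 1 was 0. Ratios nearer 1 are outside that count, and some of them did cross 1. Blvrb at 3 days went from 0.861 to 1.04 in cells of 2000 to 5000 UMIs. Hmox1 at 10 over 3 days went from 1.11 to 0.984 with a mitochondrial limit of 5%. Lrp1 at 10 days went from 1.07 to 0.980 with equal cluster weights. Equal cluster weights and cells of 2000 to 5000 UMIs moved Hmox1 most; the latter and leaving out cluster 0 were chosen after seeing the data. For Cd163 at 3 days the values that left the interval were 2.35 with a mitochondrial limit of 5%, 2.16 with median-of-ratios size factors, 2.31 with cells chosen by marker UMIs and 1.98 with equal cluster weights; at 10 days they were 1.03 with size factors, 1.06 with TMM and 1.06 with equal weights. For Hmox1 at 3 days and at 10 days they were 1.48 and 1.64 with at least 2000 UMIs, 1.63 and 1.61 with the 5% limit, 1.52 and 1.62 with size factors, 1.54 and 1.67 with TMM, 1.51 and 1.63 by marker UMIs, 1.31 and 1.32 with equal weights, 1.33 and 1.49 in cells of 2000 to 5000 UMIs, and 1.52 and 1.65 without cluster 0; at 10 days alone, 1.79 without globin cells and 1.70 as a mean of each cell's CPM. The members past 1.5-fold at 3 days were 1 rather than 2 with at least 2000 UMIs, with equal weights and in cells of 2000 to 5000 UMIs. At 10 days they were 2 rather than 1 with size factors and with TMM, and 0 with equal weights and in cells of 2000 to 5000 UMIs. Without a filter on low values 29.0%, 31.0% and 27.9% of all genes were past 1.5-fold at 3 days, at 10 days and between them, against 4.69%, 6.55% and 4.41%. No paired analysis was possible because each group had 1 mouse, which also leaves no replicate to omit. Depth limits Blvra most, at 844 to 1283 UMIs per library.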

Other observations

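Slc48a1 was seen more often in cells with an Hmox1 UMI than in cells without. After thinning to 1000 UMIs, Slc48a1 was seen in 20.1% (18.0% to 22.3%) of chow Kupffer-like cells with an Hmox1 UMI and in 12.2% (10.2% to 14.6%) of those without. The shares were 20.9% and 13.6% at 3 days and 18.6% and 13.2% at 10 days. Of the 15 pairs of members, this was the only 1 whose intervals were apart in all 3 libraries, and 12 pairs were apart in none. Within clusters 0 to 3 the share was higher with Hmox1 in 11 of 12 sums; the exception was cluster 1 at 10 days, with 9.40% against 18.6%. The pair was singled out after its values were seen.

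A cluster of 35 cells with Kupffer markers and many globin transcripts (10 cells on chow, 18 at 3 days and 7 at 10 days, median globin UMIs of 49, 43 and 54) had been left unnamed. Its Hmox1 level was 2818 CPM (2358 to 3342) on chow, 2392 (2007 to 2829) at 3 days and 3793 (3079 to 4623) at 10 days, against 1584, 2485 and 2753 in Kupffer-like cells. By counting intervals alone this cluster was above them on chow and at 10 days and not at 3 days. These intervals leave out the spread between cells, which was wide for Hmox1. With 7 to 18 cells per library, a few cells could carry a sum, so no difference is concluded. Its Cd163 levels were 491, 1125 and 464 CPM, with intervals that include the Kupffer-like levels.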
